A study of Rattus norvegicus with 20 samples.

Results

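The nuclear genes of oxidative phosphorylation (OXPHOS) were followed by respiratory complex in the supraoptic nucleus (SON) of the rat hypothalamus, in adult and aged animals with and without dehydration. A gene was taken as a member when its symbol began with Nduf (series a, b, c, s or v), was Sdha, Sdhb, Sdhc or Sdhd, began with Uqcr, was Cyc1, belonged to the Cox4 to Cox8 series with a letter a, b or c, or began with Atp5. This rule found 86 Ensembl genes with 85 symbols among the 32402 genes of the tables, and 78 of them had a mean of at least 10 normalized counts and were tested. Complex I held 35 tested members, complex II 4, complex III 9, complex IV 14 (Ndufa4 and Ndufa4l2 included, since NDUFA4 was later recognised as a complex IV subunit) and complex V 16.

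All 20 animals were male Wistar Han rats. Adult rats were 3 months old and aged rats 18 months old, with 5 rats in each of 4 groups: adult euhydrated (EH), adult dehydrated (DH), aged EH and aged DH. EH rats had free access to water, and DH rats had none for 2 days per the labels. Poly(A) RNA came from bilateral punches of the SON, which also hold glia, vessels and neighbouring tissue. In such bulk samples, fewer cells of a type and less RNA per cell cannot be told apart. Values are normalized counts, that is, read counts per gene divided by one scaling factor per library. They were deposited in 3 tables, for ageing (the EH groups of both ages), adult DH (the adult groups) and aged DH (the aged groups), each scaled separately. Values are listed in the order of the rat numbers, which were 1, 2, 4, 5 and 6 in both EH groups, 1 to 5 in adult DH, and 1, 2, 3, 5 and 6 in aged DH. The adult libraries held 24268398 to 28491926 reads assigned to genes. In the aged DH table the normalized totals ran from 27801540 to 28689164. The tested members took 0.953% ± 0.025 (SD, n = 5) of the library in adult EH and 0.927% ± 0.0312 in adult DH. In aged EH they took 0.924% ± 0.0188 and in aged DH 0.972% ± 0.0136. Avp and Oxt, which encode the hormones of magnocellular neurons, together held 247079.9 to 349422 normalized counts in the aged EH rats and were present in every rat. LFC is the log2 fold change on the log2(normalized count + 1) scale. A member was called a differentially expressed gene (DEG) when its limma p, adjusted by Benjamini-Hochberg over all genes tested in that comparison, was under 0.05.

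The respiratory chain of the inner mitochondrial membrane passes electrons from NADH through complex I, and from succinate through complex II, to ubiquinone, complex III, cytochrome c and complex IV, which reduces oxygen. Complexes I, III and IV pump protons, and complex V (ATP synthase) uses the gradient to make ATP. Complex II is encoded by nuclear genes alone, whereas the other complexes also hold subunits made from mitochondrial DNA. Magnocellular neurons of the SON make and secrete vasopressin and oxytocin, and their synthetic and electrical activity rises when the animal is dehydrated.

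Nuclear OXPHOS genes are classic targets of NRF1, of the ETS factor GABP (NRF2) and of YY1, and their start regions were therefore read for short cores of these sites. RefSeq promoter windows on GRCr8, from 250 bases before to 50 bases after the gene start, matched 74 of the 86 genes and 67 of the 78 tested ones. The deposited tables give no gene positions. A stretch from 120 bases before to 30 bases after the start is shown for 4 members on which later comparisons turn. Ndufb7 and Atp5if1 were called at both ages, Uqcrc1 was called in aged DH, and Ndufa6 fell in adult DH. Each is written 5′ to 3′ along the gene, with matches to the NRF1, ETS and YY1 letters in capitals.
Ndufb7, chr19:41477262-41477411, minus strand: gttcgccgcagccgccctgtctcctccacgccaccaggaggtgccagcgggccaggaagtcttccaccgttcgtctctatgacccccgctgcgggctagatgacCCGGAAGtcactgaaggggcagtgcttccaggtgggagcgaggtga
Atp5if1, chr5:150026648-150026797, minus strand: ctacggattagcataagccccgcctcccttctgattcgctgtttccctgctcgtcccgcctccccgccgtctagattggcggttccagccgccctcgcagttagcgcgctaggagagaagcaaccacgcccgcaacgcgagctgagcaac
Uqcrc1, chr8:118468103-118468252, plus strand: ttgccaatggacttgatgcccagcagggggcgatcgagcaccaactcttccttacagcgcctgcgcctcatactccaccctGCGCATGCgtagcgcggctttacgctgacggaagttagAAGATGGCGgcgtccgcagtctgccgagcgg
Ndufa6, chr7:115750288-115750437, minus strand: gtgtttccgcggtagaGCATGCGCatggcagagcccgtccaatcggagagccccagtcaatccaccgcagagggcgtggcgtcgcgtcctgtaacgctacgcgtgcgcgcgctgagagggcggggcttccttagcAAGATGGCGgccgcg

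The letters searched on both strands were GCGCATGC for NRF1, CCGGAAG for ETS, AANATGGCG for YY1, TCAAGGTCA for ERR and GGGCGG for Sp1. The YY1 letters hold an ATG, so a match after the start can also be a start codon. In Ndufb7 an ETS match began 16 bases before the start. Uqcrc1 held an NRF1 match 39 bases before the start and a YY1 match that began 1 base before it. In Ndufa6 the NRF1 match began 104 bases before the start and the YY1 match at base 16 of the transcript. The shown stretch of Atp5if1 held none of these 3 sets of letters and held an Sp1 match 32 bases before the start. Over the 67 tested members with a window, 17 (25.4%) held the YY1 letters, against 3.01% of all 33469 windows and 3.67% of the 21851 windows of protein-coding genes. The ETS letters were in 18 members (26.9%, against 8.75% of all and 10.7% of protein-coding windows). The NRF1 letters were in 8 (11.9%, against 2.47% and 3.11%) and the ERR letters in 2 (2.99%, against 0.433% and 0.366%). Sp1 letters were in 26 members (38.8%), above the 33.1% of all windows and below the 41.8% of protein-coding ones. YY1 matches were in 11 of 31 complex I windows and in none of 12 complex IV windows, and NRF1 matches in 4 of 14 complex V windows. In all, 32 of 67 members held at least 1 of the NRF1, ETS and YY1 sets. Among the 10 windows of members later called in aged DH, 1 held the NRF1, 3 the ETS and 3 the YY1 letters. Of the 57 windows of tested members not called there, 7 held the NRF1 and 15 the ETS letters, which are similar shares.

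**Figure D1:**
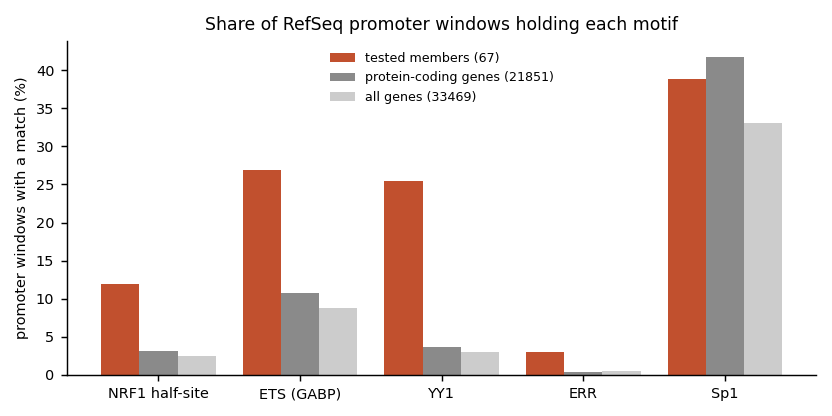
Share of RefSeq promoter windows (GRCr8, 300 bases; vertical axis in percent) that hold each set of motif letters on either strand, for the tested members, for protein-coding genes and for all genes. The bars of the members stand above both others for YY1 (25.4% against 3.67% and 3.01%), ETS, NRF1 and ERR, and between them for Sp1.

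Of the 8 members under the mean of 10, 5 are isoforms restricted to some tissues or pseudogenes. Cox7a1 lay nearest to the limit on the low side with a mean of 6.12 normalized counts over the tables, and Ndufs6 nearest on the high side with 15.3. Cox7a1 is the heart and muscle form of its subunit. Cox8b averaged 1.67, Cox8c 0.132, Cox7b2 0.274 and the pseudogene Cox6c-ps1 0.0327. Atp5pb, the stalk subunit b, was listed at 4.22, and both Ensembl genes named Ndufa1 (ENSRNOG00000040005 and ENSRNOG00000052226) at under 0.04 on average. Atp5pb, Ndufa1 and Ndufs6 are constitutive subunits, so counts this low are uncertain as levels of these genes where reads could also map to a near-identical copy. The pseudogene Ndufv3-ps1 (15.8) was tested with the rest.

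Ageing, the first comparison, gave no nuclear OXPHOS DEG. By limma, none of the 78 members was called between aged EH and adult EH rats, where 5.99% of the 15369 genes tested were called in either direction. At an unadjusted p under 0.05, 10 members were lower in aged EH, a share of 12.8% beside 10.4% of all genes. Only 1 of the 78 was higher, beside 1512 of the 15369 genes. The LFC was below 0 in 54 of 78 members, with a median of -0.021 beside 0.00033 over all genes. Scaling to equal totals left 9 members above 0 in place of 24, with a median of -0.051 (all genes -0.029). Leaving out single rats moved the median from -0.035 (without adult EH replicate 6; -0.034 without aged EH replicate 2) to -0.016 (without adult EH replicate 2). By complex the median was -0.0082 for I, -0.012 for II, -0.0060 for III, -0.043 for IV and -0.033 for V. Complex IV lay furthest from 0.

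The members with the lowest p of their complex in ageing were Ndufa2, Sdhc, Uqcr11, Ndufa4 and Atp5me. Ndufa2, an accessory subunit of complex I, read 1043, 1041, 959, 951 and 923 normalized counts in the 5 aged EH rats and 1065, 1057, 1190.2, 1044 and 1097 in the 5 adult EH rats. Its LFC was -0.15 ± 0.050 (SE), and it was not called (adjusted p = 0.104). Uqcr11, a small subunit of complex III, had an LFC of -0.10 ± 0.035 (SE), adjusted p = 0.113. Both Ndufa2 and Uqcr11 passed the threshold when libraries were scaled to equal totals, with LFC of -0.18 and -0.13. For Ndufa4 of complex IV the LFC was -0.095 ± 0.036 (SE), for Atp5me, subunit e of ATP synthase, -0.12 ± 0.045 (SE), and for Sdhc, a membrane anchor of complex II, -0.049 ± 0.039 (SE), with adjusted p from 0.147 to 0.544.

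Dehydration of adult rats called 5 members, 2 higher and 3 lower. Atp5if1, which encodes the inhibitor that blocks ATP hydrolysis by ATP synthase, and Ndufb7 rose, while the complex I accessory subunits Ndufa10 and Ndufa6 and the complex III subunit Uqcr11 fell. The 2 higher members are 2.56% of 78, beside 7.67% of the 15280 genes tested. The 3 lower are 3.85%, close to the 4.99% of all genes called lower, and such small counts shift with single members. No member of complexes II and IV was called. The median LFC of the 78 members was -0.018 beside -0.0073 for all genes, and by complex it ran from -0.044 (II) to -0.0080 (V). The member median moved from -0.0322 to -0.00287 when adult DH replicate 3 or 4 was left out, was -0.0444 after scaling to equal totals and -0.00263 with the RNA integrity number as a covariate, and stayed below 0 in all alternatives. Leaving out adult DH replicate 1, 2 or 5 gave -0.0076, -0.0278 and -0.0110, and adult EH replicate 2, 4 or 6 -0.00335, -0.0112 and -0.0300.

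Atp5if1 read 3753, 4049, 4286, 3994 and 3967 normalized counts in the adult DH rats and 3556, 3478, 3519.6, 3674 and 3368 in the adult EH rats. Every DH rat was above every EH rat, and the LFC was 0.19 ± 0.036 (SE), adjusted p = 0.00439. Ndufb7, a complex I accessory subunit facing the intermembrane space, read 1761, 1797, 1765, 1701 and 1729.5 in adult DH and 1603, 1648, 1638, 1549.5 and 1556 in adult EH. These groups did not overlap either (LFC 0.13 ± 0.032 (SE), adjusted p = 0.0169). In all, 4 members (5.13%) were higher in adult DH without overlap, Ndufb6 and Ndufc2 being the other 2, beside 6.81% of all genes.

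Ndufa6 was lower in adult DH, at 1745, 1742, 1776, 1819.6 and 1792 normalized counts against 1983, 2055, 1983, 1868 and 1857 in adult EH, again without overlap. Its LFC was -0.13 ± 0.035 (SE), adjusted p = 0.0236. Ndufa10 read 2233, 2274, 2439, 2243 and 2279 in adult DH and 2589, 2603, 2587, 2533 and 2365 in adult EH. DH replicate 3 lay above the lowest EH rat, and the other 4 DH rats lay below all EH rats (LFC -0.14 ± 0.036 (SE), adjusted p = 0.0192). Uqcr11 read 1726, 1896, 1738, 1871 and 1691 in adult DH and 1997, 2009, 1922, 1971 and 1891 in adult EH, with 1 DH rat above the lowest EH rat. The LFC was -0.14 ± 0.039 (SE), adjusted p = 0.0357 by limma. Of 21 alternative settings, Uqcr11 kept its call in 11 and Ndufa6 in 14, beside 20 for Ndufa10 and Atp5if1 and 19 for Ndufb7. Over the 10 fits that left out a rat, Uqcr11 kept it in 3, Ndufa6 in 5 and the others in all 10. With the RNA integrity number as a covariate only Atp5if1 and Ndufb7 stayed called. With libraries scaled to equal totals 1 member was called higher and 3 lower, the call on Ndufb7 being lost, and without adult EH replicate 1, 2 or 4 the count of called members was 3 in place of 5. In complexes II and IV the members with the lowest p were Sdha, the flavoprotein of succinate dehydrogenase (LFC -0.066 ± 0.027 (SE), adjusted p = 0.125), and Cox7c (LFC -0.11 ± 0.041 (SE), adjusted p = 0.0913).

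In aged rats, dehydration raised 12 members, lowered none, and left 73 of 78 with an LFC above 0. The DEGs came from 4 complexes: Ndufa2, Ndufa5, Ndufa8 and Ndufb7 of complex I, Cyc1 and Uqcrc1 of complex III, Cox5a and Ndufa4 of complex IV, and Atp5f1d, Atp5if1, Atp5mc3 and Atp5pf of complex V. The median member had an LFC of 0.096, an increase of 6.88%, beside -0.0030 over the 15346 genes tested. The 12 called members are 15.4% of 78, beside 4.05% of all genes called higher, and the 0 lower stand beside 3.25%. At an unadjusted p under 0.05, 42 members (53.8%) were higher in aged DH and 0 lower, beside 11.3% of all genes higher and 1553 of the 15346 lower. The 5 aged DH rats were all above the 5 aged EH rats in 16 members (20.5%), beside 4.12% of all genes. These steps were small, with the largest LFC among the members at 0.26. With RNA integrity as a covariate 14 members were called. The count was 5 without aged EH replicate 5, 6 without aged DH replicate 2, 3 or 5, and 5 in a limma fit without a mean-variance trend, and all of them were higher in DH.

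**Figure D2:**
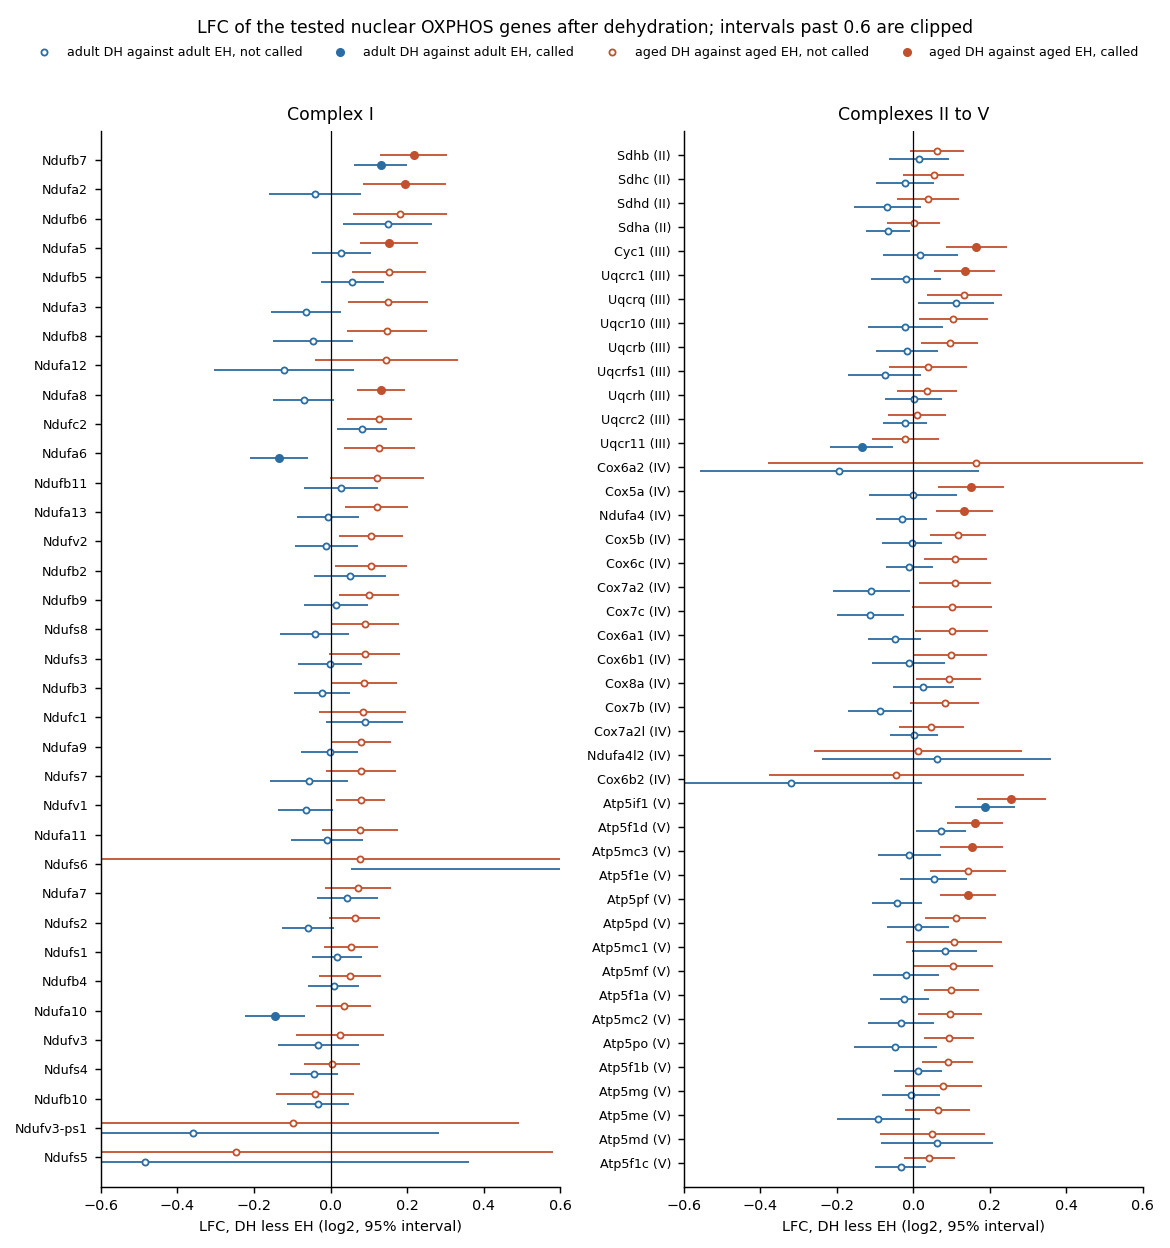
LFC of each tested member after dehydration (horizontal axis, log2, with 95% intervals from limma), for adult rats in blue and aged rats in orange, filled where the member was called. Most orange points lie right of 0 in every complex, with 12 filled, whereas the blue points lie on both sides with 5 filled. Intervals are clipped at 0.6, and the adult point of Ndufs6 (LFC 0.63, not called) lies outside the axis.

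Counted rat by rat, aged DH replicates 2, 3, 5 and 6 had more members above the EH mean than any other rat of the DH tables. Against the mean of the aged EH rats, 56 of 78 members were higher in aged DH replicate 1, and 70 to 72 in the other 4. Each aged EH rat compared with the mean of the other 4 had 18 (replicate 5) to 62 (replicate 2) members higher. In the adult DH rats 18 to 53 members were above the adult EH mean. Each adult EH rat compared with the mean of the other 4 had 13 (replicate 6) to 65 (replicate 2) members higher. Over all genes tested these shares ran from 48.9% to 51.7% in every rat of both tables.

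The level of a complex in a rat was taken as the median over its members of the log2 value less the EH mean of that age. For complex I it ran from 0.058 to 0.129 in the 5 aged DH rats and from -0.030 to 0.052 in the 5 aged EH rats. For complex III the ranges were 0.067 to 0.151 and -0.037 to 0.036, and for complex V 0.057 to 0.185 and -0.041 to 0.049. The aged groups did not overlap in these 3 complexes. The gaps were narrow in I and V, and these levels were not computed under another scaling. They overlapped in complex II, at 0.0095 to 0.076 against -0.050 to 0.034, and in complex IV, at 0.0099 to 0.169 against -0.029 to 0.057, where DH replicate 1 was the low one.

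**Figure D3:**
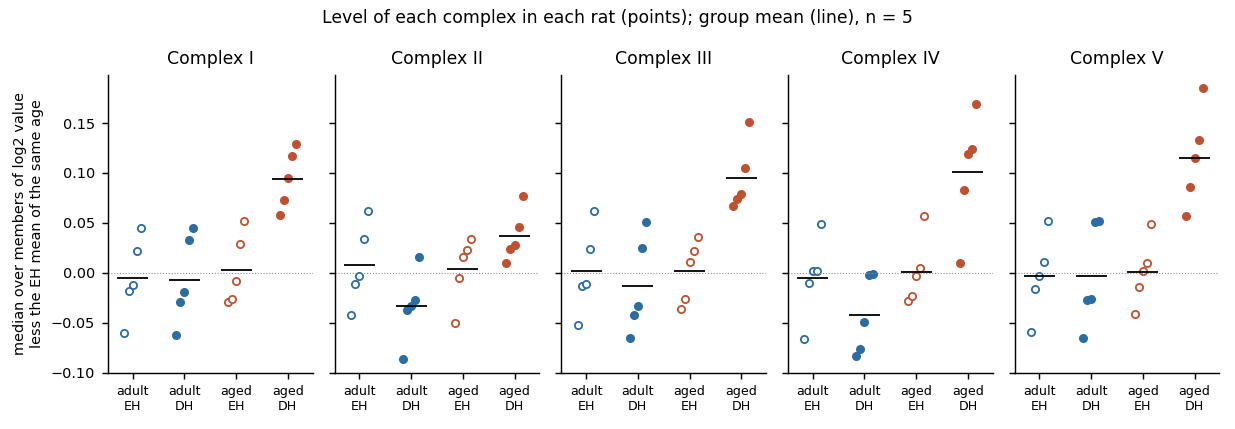
Level of each complex in each rat: the median over its tested members of the log2 value less the mean of the EH rats of the same age (vertical axis, log2), 5 rats a group with the group mean as a line. Aged DH rats lie above all aged EH rats for complexes I, III and V and overlap them for II and IV, and the adult groups overlap in every complex.

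Complex I in the aged rats had 32 of 35 members with an LFC above 0, 4 of them called, and a median of 0.089. Ndufb7 read 1821, 1952, 1865, 1949 and 1822 normalized counts in the 5 aged DH rats and 1629, 1632, 1682, 1653 and 1501 in the 5 aged EH rats. The groups did not overlap, and Ndufb7 had the largest LFC of the complex (0.22 ± 0.041 (SE), adjusted p = 0.00531). Ndufa8, another accessory subunit on the intermembrane side, read 6175, 6321, 6231, 6258 and 6328 in DH against 5649, 5649, 5535, 5839 and 5895 in EH, and Ndufa5 of the matrix arm read 2173, 2167, 2226, 2142 and 2186 against 1905, 2095, 1942, 1966 and 1894. Both were higher in every DH rat, with LFC of 0.13 ± 0.029 (SE), adjusted p = 0.0129, and 0.15 ± 0.036 (SE), adjusted p = 0.0187. Ndufa2 read 1062, 1134, 1156, 1192 and 1069.7 against 1041, 1039.5, 959, 950.2 and 917, without overlap (LFC 0.19 ± 0.050 (SE), adjusted p = 0.0323).

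The core subunits that carry electrons in complex I were not called. Ndufv1, which binds NADH, averaged 3850.1 ± 76.7 (SD, n = 5) in aged DH and 3647 ± 80.3 in aged EH. The groups did not overlap, but the LFC of 0.078 ± 0.030 (SE) missed the threshold (adjusted p = 0.144). Ndufs1, the largest iron-sulfur subunit, had an LFC of 0.054 with a 95% interval of -0.016 to 0.12. The 3 members of complex I with an LFC below 0 were Ndufb10, Ndufs5 and the pseudogene Ndufv3-ps1, and none of them was called.

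Complex II, succinate dehydrogenase, had the smallest median (0.046) and no called member, although all 4 LFC were above 0. Sdhb, its iron-sulfur subunit, read 3611, 3657, 3842, 3797 and 3674 normalized counts in aged DH and 3579.6, 3572, 3690.1, 3417 and 3539.8 in aged EH. These ranges overlapped, and its LFC of 0.062 had a 95% interval of -0.0077 to 0.13 (adjusted p = 0.297). Sdha averaged 11244 ± 205 (SD, n = 5) in aged DH and 11242 ± 391 in aged EH, an LFC of 0.00081 with an interval of -0.068 to 0.069, and its sign depended on the scaling.

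Complex III had 8 of 9 LFC above 0 and 2 DEGs. Cyc1, cytochrome c1, read 2997, 3056, 3297, 3224 and 3092 in aged DH and 2911, 2817, 2687, 2694 and 2859 in aged EH, every DH rat above every EH rat. Its LFC was 0.17 ± 0.038 (SE), adjusted p = 0.0163. Uqcrc1, core protein 1, read 5594, 5627, 5844, 5740.4 and 5410.2 against 5259.8, 5000.4, 5379.7, 4789.5 and 5292, a narrow gap, with an LFC of 0.13 ± 0.038 (SE) and adjusted p = 0.0447. Uqcrc1 kept its call in 5 of 19 alternative settings. Uqcrfs1, the Rieske iron-sulfur protein, had an LFC of 0.039 with an interval of -0.062 to 0.14, and Uqcr11, which fell in adult DH, was the member with an LFC below 0 (not called).

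Complex IV, cytochrome c oxidase, had 13 of 14 LFC above 0, a median of 0.10 and 2 DEGs. Cox5a, which together with Cox4 and Cox5b surrounds the catalytic core, read 3313, 3585, 3608, 3589.7 and 3470.4 in aged DH and 3121, 3301, 2978, 3087 and 3343 in aged EH. Only the lowest DH rat overlapped the EH range (LFC 0.15 ± 0.040 (SE), adjusted p = 0.0346). Ndufa4 read 3547, 3701, 3719.8, 3769 and 3659 against 3348, 3573, 3312, 3200.4 and 3347, with 1 DH rat below the highest EH rat (LFC 0.13 ± 0.035 (SE), adjusted p = 0.0337). Both calls were lost when libraries were scaled to equal totals, and complex IV then had 0 DEGs.

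Complex V had all 16 LFC above 0, from 0.042 to 0.26, and 4 DEGs. Atp5if1 read 4221, 4538, 4231, 4335 and 4234 in aged DH and 3666, 3500.2, 3923, 3651 and 3330.0 in aged EH, every DH rat above every EH rat. Its LFC of 0.26 ± 0.042 (SE) was the largest of all members, adjusted p = 0.00255. Atp5f1d, the delta subunit of the F1 central stalk, read 4035, 4156, 4309, 3889 and 3986 against 3681, 3740.1, 3659.9, 3561 and 3566, and Atp5pf, factor 6 of the peripheral stalk, 3024, 3243, 3077, 3359.8 and 3148 against 2894, 2864, 2868, 2868 and 2861. Neither pair of groups overlapped. Their LFC were 0.16 ± 0.034 (SE), adjusted p = 0.0111, and 0.14 ± 0.034 (SE), adjusted p = 0.0221. The catalytic subunits were not called: Atp5f1a, subunit alpha, had an LFC of 0.10 ± 0.034 (SE), adjusted p = 0.0918, and Atp5f1b, subunit beta, 0.090 ± 0.031 (SE), adjusted p = 0.102. The 5 aged DH rats were nevertheless all above the 5 aged EH rats for Atp5f1b, at 31509 to 32399.7 against 29264 to 31269. Of the 12 DEGs, Atp5if1 and Ndufb7 were called in all 19 alternative settings of the aged DH comparison, and Ndufa8 and Atp5f1d in 18. Ndufa5 kept its call in 17, Cyc1 in 16, Atp5pf in 14, Ndufa2 and Atp5mc3 in 11, Cox5a in 9 and Ndufa4 in 8. Over the 10 fits that left out a rat, Ndufa2, Atp5mc3 and Cox5a kept it in 4, Ndufa4 in 3 and Uqcrc1 in 2.

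**Figure D4:**
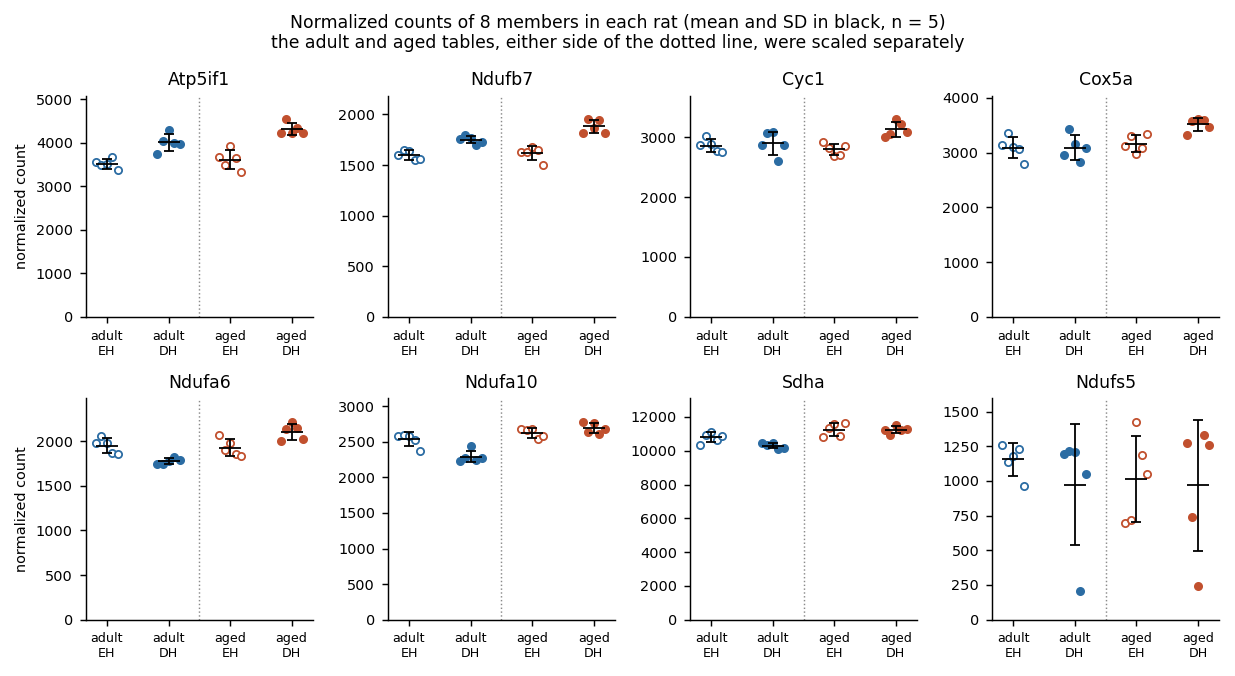
Normalized counts of 8 members in each rat (vertical axis, from 0), with the mean and SD of each group of 5. Atp5if1 and Ndufb7 separate DH from EH at both ages, Cyc1 separates the aged groups, Ndufa6 separates the adult groups in the other direction, and Ndufs5 has 1 low rat in adult DH, 2 in aged DH and 2 in aged EH.

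Several subunits have paralogous genes, and the members of a pair were set side by side. The 3 genes of the ATP synthase c-ring, Atp5mc1, Atp5mc2 and Atp5mc3, encode the same mature protein. Atp5mc3 read 4562, 4976, 5066, 4989.9 and 4696 in aged DH and 4351, 4632, 4289, 4238 and 4334 in aged EH and was called (LFC 0.15 ± 0.038 (SE), adjusted p = 0.0262), with 1 DH rat inside the EH range. Atp5mc1 (0.11 ± 0.059 (SE)) and Atp5mc2 (0.097 ± 0.039 (SE)) were not called, and no test of the difference between the 3 was made. Cox6a1, Cox6b1, Cox7a2 and Cox8a, the widely expressed forms, had LFC of 0.10, 0.097, 0.11 and 0.093 in aged DH. None passed the adjusted threshold. The heart and muscle form Cox6a2 averaged 60.95 ± 14.6 normalized counts (SD, n = 5) in aged DH and 55.97 ± 20.01 in aged EH, and the testis form Cox6b2 had an LFC of -0.044 with an interval of -0.38 to 0.29. Ndufa4l2, a paralog of Ndufa4 known as hypoxia-inducible, had an LFC of 0.012 with an interval of -0.26 to 0.28, and its sign changed with the scaling. Cox7a2l, which takes part in supercomplex formation, had an LFC of 0.047 with an interval of -0.037 to 0.13.

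Whether the response to dehydration differed between the ages was tested directly, as the aged LFC less the adult LFC over the 20 rats. By limma, no member was called for this difference, and 0.0% of the 15326 genes tested were called in either direction. At an unadjusted p under 0.05, 34 members (43.6%) had a higher LFC in aged than in adult rats and 0 a lower one. Over all genes 4.86% were higher and 777 of the 15326 lower. The difference was above 0 in 73 of 78 members, with a median of 0.11 beside -0.0015 over all genes. Members moved together within a rat, with 13 to 65 of 78 above the mean of the other adult EH rats. They are therefore not separate observations, and the counts over members can rest on a few rats. By complex the median difference was 0.096 for I, 0.071 for II, 0.11 for III, 0.15 for IV and 0.094 for V. The lowest adjusted p values of the complexes were 0.189 for Ndufa6 (difference 0.26 ± 0.055 (SE)), 0.191 for Atp5pf (0.19 ± 0.043 (SE)), 0.243 for Ndufa4 (0.16 ± 0.044 (SE)), 0.381 for Uqcrc1 (0.15 ± 0.058 (SE)) and 0.54 for Sdhd (0.11 ± 0.055 (SE)). For Ndufa6 the aged DH rats read 2001, 2132, 2215, 2154 and 2029.6 normalized counts and the aged EH rats 2070.3, 1899, 1983, 1856 and 1832, overlapping, with an LFC of 0.13 ± 0.043 (SE) that was not called (adjusted p = 0.0945), beside the fall in adult DH given above. The members called at both ages had differences of 0.069 (95% interval -0.049 to 0.19) for Atp5if1 and 0.086 (-0.015 to 0.19) for Ndufb7. The difference shares its 10 aged rats with the aged DH comparison and its 10 adult rats with the adult one, and the ageing comparison shares both EH groups with them.

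Members varied little between rats of a group. The median coefficient of variation over the 78 members was 3.82% in aged EH, 4.32% in aged DH, 3.95% in adult EH and 4.11% in adult DH. The exception among members with higher counts was Ndufs5, a complex I subunit chosen for description after its values were seen. It read 1192, 1213, 1207, 203 and 1053 in adult DH and 1262, 1138, 1177, 1231 and 964 in adult EH. In aged DH it read 1277, 738, 241, 1327 and 1257 and in aged EH 699, 717, 1424, 1188 and 1052. Adult DH replicate 4 and aged DH replicate 3 were far below the other rats of their groups, with aged DH replicate 2 and aged EH replicates 1 and 2 in between. The LFC were -0.48 ± 0.39 (SE) and -0.25 ± 0.39 (SE), neither called. Leaving out adult DH replicate 4 alone gave an adult LFC of 0.019, and leaving out aged DH replicate 3 alone an aged LFC of 0.20.

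The nuclear subunits and partners that the symbol rule left out were read from a list. Of the 4 tested, 3 were higher in aged DH: Cox4i1, the main subunit 4 of complex IV (LFC 0.13 ± 0.033 (SE), adjusted p = 0.0291), Ndufab1, the mitochondrial acyl carrier protein in complex I (0.17 ± 0.035 (SE), adjusted p = 0.00876), and Cycs, cytochrome c (0.15 ± 0.033 (SE), adjusted p = 0.0144). The fourth, Cox4i2, the oxygen-responsive form of subunit 4, had an LFC of 0.19 ± 0.13 (SE) and was not called. None of the 4 was called in ageing or adult DH. Over all genes tested, 4.05% were called higher in aged DH. Assembly factors, which build the complexes without staying in them, gave 1 DEG among 47 tested in aged DH, Higd1a (0.19 ± 0.045 (SE), adjusted p = 0.0179), and a median LFC of -0.0011. In adult DH the 1 called assembly factor was Bcs1l, which inserts the Rieske protein into complex III and fell (-0.28 ± 0.062 (SE), adjusted p = 0.0104), and in ageing it was Atpaf1, a chaperone of the F1 part, which rose (0.19 ± 0.039 (SE), adjusted p = 0.0118).

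The 13 protein genes of mitochondrial DNA encode the remaining subunits of complexes I, III, IV and V. In aged DH none of the 13 was called, 5 had an LFC above 0, and their median was -0.030, beside 0.096 for the nuclear members. They took 13.5% ± 0.786 (SD, n = 5) of the library in aged DH and 13.7% ± 0.206 in aged EH. In ageing, 11 of the 13 had an LFC above 0 with a median of 0.19. By limma, ND4 (0.36 ± 0.088 (SE), adjusted p = 0.0314) and ND5 (0.28 ± 0.054 (SE), adjusted p = 0.00898), both of complex I, were called, beside 5.99% of all genes in either direction. In adult DH none was called and the median was 0.078. Of the 17 genes of the tricarboxylic acid cycle, 3 were higher in aged DH, Fh (0.16 ± 0.042 (SE)), Ogdh (0.14 ± 0.030 (SE)) and Suclg1 (0.14 ± 0.031 (SE)), with a median of 0.064 for the list. Ogdh, the E1 subunit of 2-oxoglutarate dehydrogenase, was also higher in adult DH (0.15 ± 0.038 (SE), adjusted p = 0.0219), where it was the 1 called gene of the list, and ageing called none of the 17.

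**Figure D5:**
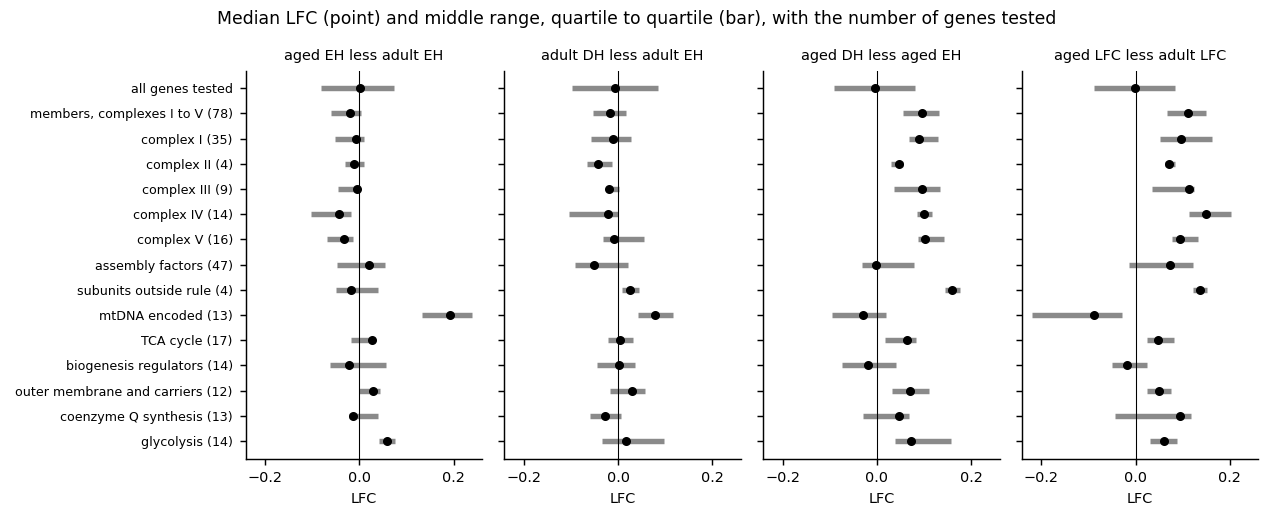
Median LFC (point) and quartile-to-quartile range (bar) of each complex, of the other mitochondrial and glycolytic lists and of all genes tested, in the 4 comparisons (horizontal axes, log2). In aged DH the 5 complexes lie right of 0 (medians 0.046 to 0.10), the assembly factors at 0 and the mitochondrially encoded genes left of it.

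Markers of other cell types were read in the same aged libraries. The 6 markers of cortical and amygdalar neurons summed to 864 to 1620.2 normalized counts in aged DH and 1676 to 4062 in aged EH without overlap, and Neurod6, Slc17a7 and Neurod2 fell. The 5 oligodendrocyte markers summed to 245838 to 293524 in aged DH and 223469 to 271141 in aged EH, all 5 had an LFC above 0 (median 0.12), and Mobp rose. The 5 astrocyte markers summed to 79744 to 94949 against 87059 to 109594 with none called, and the 4 erythrocyte genes to 7145 to 13032 against 9170.1 to 22929, with Hbb lower. The 4 general neuron markers summed to 49919.6 to 55114 against 50907 to 55701, with Tubb3 higher and the other 3 (Rbfox3, Stmn2 and Syt1) at an LFC below 0, not called (median of the 4 -0.069), and Avp and Oxt together to 285733 to 473621 against 247079.9 to 349422, neither called. Markers of microglia (5), endothelium (3) and meninges (4 tested) held no DEG in aged DH. No marker was at 0 in a whole group except 1 of the 5 meningeal genes. The cortical and amygdalar list had a median LFC of -1.07 in aged DH and -0.010 in adult DH. For the difference between the ages its median was -1.08, with 4 of 6 below 0. The oligodendrocyte list had a median difference of 0.29, with 5 of 5 above 0, and no marker of either list was called for it. The part of these shifts in the higher values of the nuclear OXPHOS members in aged DH, or in their difference between the ages, was not tested.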

How the data were processed

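Poly(A) RNA-seq libraries (TruSeq stranded mRNA) were made from SON punches of 20 rats. Per the methods, reads were aligned with STAR to Rn6 and counted per gene with featureCounts, with versions not given in the sources used here, and normalized with DESeq2; the water was withheld for 72 h, where the labels give 2 days. The authors deposited normalized counts (signal: counts divided by a size factor per library) in 3 tables. Their columns of fold changes and p-values were not used. In the adult DH table all values were whole reads within 0.1 read after undoing the factor.

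Groups were taken from the labels. Genes with a mean of at least 10 were tested with limma-trend (limma 3.58.1, R 4.3.3; two-sided) on log2(normalized count + 1), over all genes of each table, and the difference between the ages was fitted over all 20 rats, each from the DH table of its age. P-values were adjusted by Benjamini-Hochberg over all genes tested, with a threshold of 0.05. P-values measure the spread between rats. Per the methods, rats shared cages, and whole cages were randomly assigned to EH or DH. The labels name no cage, so the spread between cages could not be separated from that between rats. The scripts were tested on simulated data. Members, gene lists and tests were chosen with earlier results of these data known. Genes were named by rule: per comparison and complex the 3 called members with the lowest adjusted p or, with none called, the lowest p; called members against the majority; core subunits; paralogous isoforms; symbols with more than 1 Ensembl gene; and listed genes. Ndufs5 was added after its values were seen. The lists held assembly factors, subunits outside the rule, mitochondrially encoded genes, the tricarboxylic acid cycle, biogenesis regulators, membrane carriers, coenzyme Q synthesis, glycolysis and markers of 9 cell types; the result of 1 listed gene is not reported here. Alternatives were another pseudocount, filter, scaling or moderation, sample weights, RNA integrity, a replicate block, each rat left out, and edgeR 4.0.16 and DESeq2 1.42.0 on the adult reads.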

Additional observations from a re-analysis of the deposited data

Results flagged for a closer look

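In 84 groups of 5 rats of the members described by name, 5 held a rat far from the other 4, by a gap to the nearest rat that took up most of the group's range. Chance gives about 1 such group in 20. Atp5mc3 in aged EH replicate 2 read 4632 normalized counts, beside 4238 to 4351 in the other 4 rats, and Atp5pf in aged EH replicate 1 read 2894, beside 2861 to 2868. Ndufa4l2 in aged EH replicate 6 read 99.9, beside 73.0 to 80.4. In adult DH, Ndufa10 in replicate 3 read 2439, beside 2233 to 2279, and Ndufs5 in replicate 4 read 203, beside 1053 to 1213. No member had groups separated in opposite directions at the 2 ages, and none passed the test of the difference between the ages.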

How the results depend on the processing

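The direction of the called members held in every alternative run, and the counts moved. In aged DH the 12 called members became 5 without a trend in the moderation and 2 with the rat number as a replicate block, and ran from 5 (without aged EH replicate 5) to 13 when single rats were left out. The other settings gave 9 to 14. In adult DH the 5 called members became 2 with RNA integrity as a covariate and 1 under the replicate block, and ran from 3 to 6 over left-out rats, while edgeR and DESeq2 on the recovered reads each called 5. Ageing called 0 in the other settings, 2 (Ndufa2 and Uqcr11, both lower) after scaling to equal totals and 0 to 1 over left-out rats (1 without adult EH replicate 6). Scaling to equal totals moved the adult DH split from 2 higher and 3 lower to 1 and 3. The difference between the ages called 0 in all settings. The labels do not say whether the rat numbers pair animals. Same-numbered rats of 2 groups correlated at -0.048 to 0.124 in ageing, -0.083 to 0.134 in adult DH and -0.062 to 0.162 in aged DH. Rats with different numbers correlated at -0.128 to 0.131, -0.094 to 0.121 and -0.25 to 0.114. So few pairs do not settle whether the numbers pair animals, and the block is given as a value only. Over these alternatives the members above 0 numbered 69 to 75 in aged DH, 18 to 37 in adult DH and 9 to 33 in ageing. Among the members followed by name, the LFC of 5 that were not called changed sign: Sdha -0.015 after scaling to equal totals, -0.037 after quantile normalization, -0.013 to 0.013 over left-out rats; Ndufa4l2 -0.00317 after equal totals, -0.00528 under the block, -0.027 to 0.089 over left-out rats; Cox6a2 -0.11 under the block, -0.044 to 0.32 over left-out rats; Cox6b2 -0.12 to 0.039 over left-out rats; Ndufs5 0.33 under the block, -0.42 to 0.20 over left-out rats, and -0.62 to 0.019 over left-out rats in adult DH. The cause of these changes was not tested. Whole-read tests of the ageing and aged DH tables were not run, because whole reads were recovered for the adult DH table alone. Ndufs6, Ndufv3-ps1, Cox6a2, Cox6b2 and Ndufa4l2 had under 100 normalized counts on average, which limits their precision.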

Other observations

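Glycolysis, the other main route to ATP, gave 6 DEGs among 14 tested genes in aged DH, all higher, beside 4.05% of all genes called higher. They were Ldha (0.28 ± 0.047 (SE)), Pgam1 (0.17 ± 0.033 (SE)), Eno1 (0.16 ± 0.030 (SE)), Gapdh (0.16 ± 0.034 (SE)), Aldoc (0.15 ± 0.041 (SE)) and Pgk1 (0.12 ± 0.029 (SE)), each value an LFC. The median of the list was 0.072. In adult DH, Ldha, lactate dehydrogenase A, rose by 0.42 ± 0.045 (SE) on the log2 scale, adjusted p = 4.07e-05 by limma, and Eno1 by 0.14 ± 0.026 (SE), while Pfkm fell (LFC -0.11 ± 0.033 (SE)). Of all genes tested in adult DH, 7.67% were called higher and 4.99% lower. Ageing called no glycolytic gene.

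Among 12 outer membrane and carrier genes, aged DH raised Slc25a5, an ADP/ATP carrier (0.20 ± 0.049 (SE)), Timm23 of the inner membrane import channel (0.14 ± 0.037 (SE)) and the phosphate carrier Slc25a3 (0.12 ± 0.032 (SE)). Adult DH raised Slc25a5 (0.17 ± 0.043 (SE)) and Tomm20, a receptor of the outer membrane import pore (0.22 ± 0.037 (SE)). The shares of all genes called higher were 4.05% in aged DH and 7.67% in adult DH. Of the 14 regulators of mitochondrial biogenesis tested, none was called in either DH comparison, with a median of -0.018 in aged DH, and Tfb1m was higher in ageing (0.25 ± 0.054 (SE)). Of the 13 genes of coenzyme Q synthesis, none was called in aged DH or ageing, and Coq10a was lower in adult DH (-0.15 ± 0.043 (SE)).

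Markers of other cells also differed by age. In ageing, the oligodendrocyte markers Mobp and Mog, 2 astrocyte markers (Aqp4 and Gja1) and 3 meningeal genes (Col1a1, Igf2 and Lum) were lower, and the median LFC of the 5 oligodendrocyte markers was -0.36, all 5 being below 0. The microglial Cx3cr1 and P2ry12 were higher. In adult DH, Avp was higher and Hba-a1 lower, and Tubb3 was the 1 called gene (higher) of 4 neuron markers, whose median LFC was -0.015 with 2 below 0.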
